A study of Mus musculus with 19 samples.

Results

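The circadian clock of the liver was described here through 10 of its genes: Arntl (also called Bmal1), Clock, Npas2, Per1, Per2, Per3, Cry1, Nr1d1, Nr1d2 and Dbp. They were taken by gene symbol from the 49315 genes of the count tables, all 10 were present, and all 10 were among the 15016 genes that passed the filter on low counts. Liver RNA was sequenced from 19 female mice from a colony of the strain C57BL/6N-Atm1Brd Gramd1ctm1a(KOMP)Wtsi/JMmucd, with 1 library per mouse. Gramd1c-/- mice carry a whole-body knockout-first allele of Gramd1c, which encodes the sterol transporter Aster-C, and Gramd1c+/+ mice were littermates from crosses of heterozygotes. The high cholesterol diet (0.2%, wt/wt) was given to 5 Gramd1c-/- and 5 Gramd1c+/+ mice, and the low cholesterol diet (0.02%, wt/wt) to 4 Gramd1c-/- and 5 Gramd1c+/+ mice, for 4 weeks from 8 weeks of age. Most mice of the study were fasted for 4 h, from 9 to 13 h, before necropsy, and the clock hour at which each liver was taken is not given in the sources used here.

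In the liver clock, the proteins ARNTL and CLOCK (or its relative NPAS2) form a pair that binds E-box sequences and switches on the Per, Cry, Nr1d and Dbp genes. PER and CRY proteins then inhibit that pair, while NR1D1 and NR1D2 repress Arntl, Clock and Npas2 through elements called RORE. DBP is an output of the loop, a transcription factor that binds D-box sequences, some of them in Per genes. As a result the mRNAs of the activators and of Dbp and the Per genes peak at nearly opposite times of day, and feeding time is a strong signal for the liver clock.

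Library totals were 27149972 to 34669648 counts, with a median of 30159347. The tissue field of the labels names gonadal adipose tissue and the cell type field names liver. The hepatocyte gene Alb held 5.25 to 9.17% of a library and all 5 hepatocyte markers were present in every group, while the adipocyte gene Adipoq had 0 to 177 counts (median 0.0560 TPM). Gramd1c averaged 1.84 ± 1.02 TPM (counts scaled by gene length and by library, computed here) in Gramd1c-/- and 10.6 ± 0.996 TPM in Gramd1c+/+ mice on high cholesterol (SD, n = 5 each), and 1.65 ± 0.365 TPM (n = 4) and 12.2 ± 2.22 TPM (n = 5) on low cholesterol, with no overlap between genotypes. A pair of libraries stood apart: mouse 2 of the low cholesterol Gramd1c+/+ group held adrenal markers at a summed 569 TPM (0.658 to 3.69 TPM in the other mice) and adipocyte markers at 37.2 TPM (at most 9.40 TPM in the others), and mouse 5 of the high cholesterol Gramd1c-/- group scored 83.1 on the first principal component of all genes (-46.7 to 38.4 in the others). In addition, mouse 4 of the high cholesterol Gramd1c-/- group held Kupffer cell markers at a summed 695 TPM (at most 360 TPM in the others), and the values given without both libraries that stood apart still include it. In whole liver, fewer cells of a type and less RNA per cell cannot be told apart.

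Of the activators, Arntl and Npas2 were the least abundant members per length. On build GRCm38, which holds for all gene positions here, Arntl (chr7:113207465-113314126, plus strand) averaged 1.06 TPM over all mice. Its levels in mice 1 to 5 of the Gramd1c-/- mice on high cholesterol were 0.890, 0.439, 1.202, 2.35 and 0.250 TPM, against 0.592, 0.918, 0.398, 0.828 and 0.747 TPM in Gramd1c+/+ mice on that diet. On low cholesterol they were 0.575, 1.13, 0.800 and 2.32 TPM in Gramd1c-/- mice and 2.58, 2.04, 0.996, 0.668 and 0.482 TPM in Gramd1c+/+ mice. All 4 groups overlapped, and within Gramd1c-/- mice on high cholesterol alone the highest mouse had 9.43 times the level of the lowest. These levels rest on 26 to 259 counts per mouse.

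Clock (chr5:76209868-76304792, minus strand), the usual partner of Arntl, was higher and steadier, at 2.90 to 8.76 TPM (599 to 1555 counts). Npas2 (chr1:39193731-39363236, plus strand), which can replace Clock, was the lowest member at 0.0571 to 1.05 TPM. With only 4 to 67 counts per mouse, its counting error is the largest of the 10. Both showed group ranges that overlapped in every comparison.

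Of the repressors, Per3 (chr4:151003652-151044665, minus strand) varied most, over 20.3-fold. It was at 1.82, 2.31, 2.57, 1.01 and 7.90 TPM in Gramd1c-/- and at 2.54, 2.10, 1.90, 3.34 and 2.97 TPM in Gramd1c+/+ mice on high cholesterol. On low cholesterol Per3 was at 2.36, 1.25, 2.29 and 0.870 TPM in Gramd1c-/- mice, against 0.389, 1.08, 1.28, 2.28 and 3.71 TPM in Gramd1c+/+ mice. The 7.90 TPM came from the library that stood apart on the first principal component, and that mouse also had the highest Per2 (9.08 TPM). Per2 (chr1:91415982-91459324, minus strand) otherwise kept to 1.69 to 4.97 TPM. Per1 (chr11:69095217-69109960, plus strand), which also responds to glucocorticoids, ranged from 1.57 to 15.8 TPM, and both ends of that range were Gramd1c+/+ mice on low cholesterol. Cry1 (chr10:85131700-85185064, minus strand) ranged from 1.67 to 7.62 TPM.

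The nuclear receptors and Dbp were the abundant members. Nr1d1 (chr11:98767932-98775333, minus strand) was at 96.0, 90.8, 138, 92.9 and 96.5 TPM in Gramd1c-/- and at 75.1, 98.5, 147, 107 and 106 TPM in Gramd1c+/+ mice on high cholesterol. On low cholesterol it was at 115, 132, 95.2 and 107 TPM in Gramd1c-/- mice and at 124, 102, 99.7, 69.8 and 70.2 TPM in Gramd1c+/+ mice, so that all mice lay within 2.11-fold. Nr1d2 (chr14:18204054-18239127, minus strand), its close relative, ranged from 18.98 to 55.6 TPM. Part of the Nr1d1 exons (263 bases, 8.55% of its length) lies opposite exons of Thra. Without a stated strand setting, reads of both genes there cannot be told apart.

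Dbp (chr7:45705088-45710203, plus strand) spread widely in 3 of the 4 groups. It was at 68.7, 71.3, 62.0, 33.8 and 117 TPM in Gramd1c-/- mice on high cholesterol, against 75.4, 68.8, 69.2, 75.4 and 74.6 TPM in Gramd1c+/+ mice on that diet. On low cholesterol it was at 83.1, 49.0, 62.6 and 40.1 TPM in Gramd1c-/- and at 22.7, 29.8, 54.9, 69.6 and 95.01 TPM in Gramd1c+/+ mice. The Gramd1c+/+ mice on high cholesterol lay within 1.10-fold, and those on low cholesterol spanned 4.18-fold, around both ends of that narrow range. Dbp shares 539 exon bases (18.0% of its length) with Sphk2 on the opposite strand, which had 1014 to 2588 counts per mouse.

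**Figure D1:**
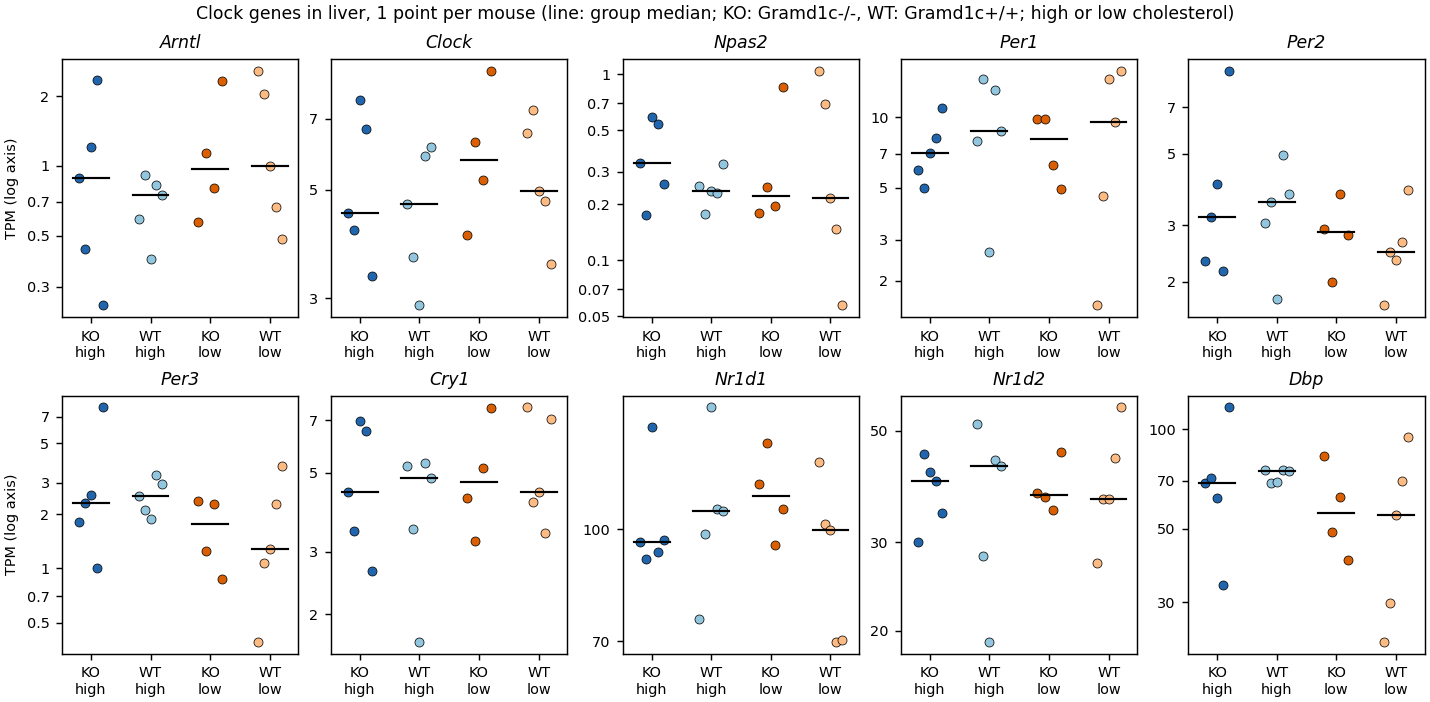
Level of each clock gene in TPM on a log axis, 1 point per mouse and a line at the group median, with Gramd1c-/- (KO) left of Gramd1c+/+ (WT) on high and then low cholesterol. Groups overlap for every gene, and Per3 runs from 0.389 to 7.90 TPM while Nr1d1 stays between 69.8 and 147 TPM.

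The control sequences of the loop could be read for 9 of the 10 genes in RefSeq windows (build GRCm38.p6) that run 250 bases before to 50 after an annotated start. Both strands were searched for the E-box CACGTG, the related CACGTT, the D-box TTATGTAA or TTACGTAA, and the RORE. The windows that held a match are shown because these elements link the members in the loop, with the match in capitals.
Per3, chr4:151044796-151044885, minus strand: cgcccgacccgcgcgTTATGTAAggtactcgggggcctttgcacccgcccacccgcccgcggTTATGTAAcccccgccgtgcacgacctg
Per1, chr11:69098754-69098813, plus strand: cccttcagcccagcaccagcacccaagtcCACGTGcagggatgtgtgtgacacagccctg
Cry1, chr10:85185084-85185163, minus strand: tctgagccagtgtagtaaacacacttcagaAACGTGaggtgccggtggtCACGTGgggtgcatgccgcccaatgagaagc
Nr1d1, chr11:98775388-98775437, minus strand: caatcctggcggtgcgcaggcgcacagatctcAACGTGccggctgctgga
Arntl, chr7:113207527-113207556, plus strand: gggaaggcagAAAGTAGGTCAgggacggag
The Per3 window held the D-box at -205 and again at -158 from its start, and the Per1 window held an E-box at -166. The start used for Per1 (chr11:69098949) lies inside the gene span given above and is not its first base. No match was found for Clock, Npas2, Nr1d2 or Dbp, and Per2 had no window. In Cry1 an E-box lay at -60 beside a CACGTT (read as AACGTG on this strand) at -79, and Nr1d1 had a CACGTT at -28. The RORE of Arntl began at 27, inside the transcribed part. Over all 27025 genes with such windows, 8.09% held an E-box, 5.44% a CACGTT, 1.23% a D-box and 0.459% a RORE. These matches describe letters in short windows, and no binding was measured.

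Genotype did not move any member past the threshold on either diet. On high cholesterol the edgeR log2 fold changes of Gramd1c-/- over Gramd1c+/+ mice ran from -0.37 (SE 0.47) for Per1 to 0.53 (SE 0.57) for Npas2, and 0 of 10 members had a Benjamini-Hochberg adjusted p below 0.05, where 0.00666% of all genes were called. On low cholesterol they ran from -0.27 (SE 0.50) for Per1 to 0.27 (SE 0.21) for Nr1d1, again with 0 of 10 called against 0.00666% of all genes. Averaged over both diets, 0 of 10 were called against 0.00666% of all genes, with the ends at -0.32 (SE 0.34) for Per1 and 0.205 (SE 0.25) for Per2. In each of the 3 comparisons the gene called was Gramd1c itself, and 0 of 10 members had an unadjusted p below 0.05. The positive Per2 value rested on mouse 5 of the high cholesterol Gramd1c-/- group: without it the log2 fold change was -0.08.

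Dietary cholesterol likewise left every member short of the threshold. In Gramd1c-/- mice the high over low cholesterol log2 fold changes ran from -0.28 (SE 0.52) for Arntl to 0.89 (SE 0.55) for Per3, and 0 of 10 members were called against 0.326% of all genes. In Gramd1c+/+ mice they ran from -0.91 (SE 0.50) for Arntl to 0.57 (SE 0.52) for Per3, with 0 of 10 called against 0.44% of all genes. For the average over both genotypes, 1.3% of all genes and 0 of 10 members were called, and the smallest edgeR adjusted p of a member was 0.309, for Per3. The activators had log2 fold changes of -0.60 (SE 0.36) for Arntl, -0.23 (SE 0.15) for Clock and -0.38 (SE 0.41) for Npas2. Per3 was at 0.73 (SE 0.38), Per2 at 0.47 (SE 0.25) and Dbp at 0.36 (SE 0.26), while Cry1 was at -0.25 (SE 0.21). Nr1d1, Nr1d2 and Per1 lay between -0.0750 and 0.0506. Over the 10 members, which differ in sign, the median log2 fold change was -0.05, and over all genes it was 0.02. With signs ignored, the median was 0.30 over the members and 0.16 over all genes.

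In each of these 3 diet comparisons 0 of 10 members had an unadjusted edgeR p below 0.05, and DESeq2 called 0 of 10 as well. The values depended on few mice. Without mouse 5 of the high cholesterol Gramd1c-/- group, the average diet difference of Per3 was 0.34, and without both libraries that stood apart it was 0.26. The Arntl difference in Gramd1c+/+ mice was -0.50 without mouse 1 of the low cholesterol group, and -0.46 when the fit held the run of animal numbers (2 runs, described further on). In Gramd1c-/- mice the Arntl difference turned to 0.20 without mouse 4 of the low cholesterol group. For the genotype by diet interaction, 0 of 10 members and 0% of all genes were called by edgeR and by DESeq2 (250 genes and 0 members had an unadjusted edgeR p below 0.05), with member values from -0.42 (SE 0.29) for Nr1d1 to 0.76 (SE 0.83) for Npas2. Exact two-sided permutation tests of the difference of TPM means gave p of 0.159 or more for the members in all 40 tests of the 4 simple comparisons. A value that misses the threshold does not show that groups were alike, since the SE of Arntl, Npas2, Per1 and Per3 was 0.47 to 0.60 in the simple comparisons.

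**Figure D2:**
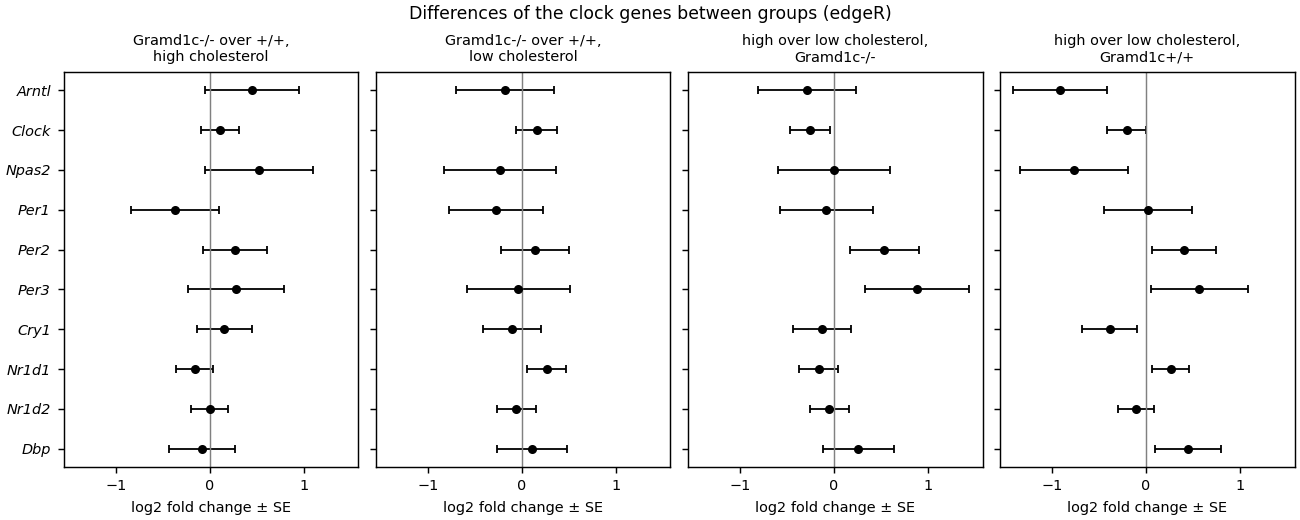
Log2 fold change of each clock gene in the 4 simple comparisons, with bars of 1 standard error derived from the edgeR F statistic. In Gramd1c+/+ mice Arntl lies at -0.91 and Per3 at 0.57 for high over low cholesterol, and no member had an adjusted p below 0.05 in any panel.

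The spread among mice of 1 group was larger for most members than for a typical gene. The within-group SD of log2 CPM (counts scaled by TMM library size) was 0.93 for Per3, 0.92 for Per1, 0.91 for Npas2 and 0.87 for Arntl, against a 95th percentile of 0.84 over the genes tested. Dbp (0.64), Per2 (0.57) and Cry1 (0.52) followed, and Clock (0.36), Nr1d2 (0.33) and Nr1d1 (0.33) were close to the median of all genes, 0.31. This SD includes counting error. By the biological coefficient of variation of edgeR, Npas2 (58.9%) and Per3 (55.2%) lay above the 95th percentile of all genes (53.7%), while Arntl (53.0%) and Per1 (50.7%) lay below it.

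The 4 mice with the highest Arntl were ranked 16 to 19 of 19 in both Dbp and Per3. The mouse next in Arntl, mouse 3 of the high cholesterol Gramd1c-/- group, was instead rank 5 in Per3 and rank 13 in Dbp. Mouse 1 of the low cholesterol Gramd1c+/+ group had the highest Arntl, Npas2 and Cry1 and the lowest Dbp, Per1, Per2 and Per3 of the 19 mice. Mouse 5 of the high cholesterol Gramd1c-/- group had the lowest Arntl and the highest Dbp, Per2 and Per3. The ratio of Dbp to Arntl TPM was 14.4 to 467 in Gramd1c-/- mice on high cholesterol and 74.9 to 174 in Gramd1c+/+ mice on that diet. On low cholesterol the ratio was 17.2 to 144 in Gramd1c-/- mice and 8.81 to 197 in Gramd1c+/+ mice. Over all mice it spanned 53.0-fold, and all groups overlapped. The Gramd1c+/+ mice on high cholesterol did not share the contrast with Per3: the mouse of highest Arntl (0.918 TPM) had 2.10 TPM of Per3 and the mouse of lowest Arntl (0.398 TPM) had 1.90 TPM.

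This covariation was measured with group means removed, by correlating log2 CPM over the 19 mice and permuting mice within groups 100000 times. Of 45 pairs, 19 had a Benjamini-Hochberg adjusted permutation p below 0.05 by Pearson's r, 9 positive and 10 negative, and 16 of them also passed by Spearman's rho. The strongest was Arntl with Dbp, at r = -0.93 and rho = -0.91 (permutation p = 6e-05 for both, adjusted p = 0.000675 for r). For Arntl with Per3, r was -0.92 and rho -0.87 (permutation p = 2e-05 and 0.00013, adjusted p = 0.00045 for r). Per3 and Dbp were positively correlated at r = 0.92 and rho = 0.82 (permutation p = 0.00028 and 0.00132, adjusted p = 0.0018 for r). Many genes outside the members also correlated with them. The 95th percentile of the size of r over those genes was 0.74 for Clock, 0.65 for Arntl, 0.63 for Dbp, 0.62 for Per2, 0.60 for Per3, 0.58 for Npas2 and 0.44 for Per1. How often pairs of other genes pass the same test was not counted.

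Within the activators every pair was positive. Arntl correlated with Clock at r = 0.84 and rho = 0.825 (adjusted permutation p = 0.00126 for r) and with Npas2 at r = 0.79 and rho = 0.81 (adjusted permutation p = 0.00242 for r), and Clock with Npas2 at r = 0.78. Each of the 3 was negative with Dbp, Clock at r = -0.86 and Npas2 at r = -0.84. All pairs of Per genes were positive too: Per2 with Per3 at r = 0.83 and rho = 0.85 (adjusted permutation p = 0.000675 for r), Per1 with Per3 at r = 0.64 and Per1 with Per2 at r = 0.54.

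**Figure D3:**
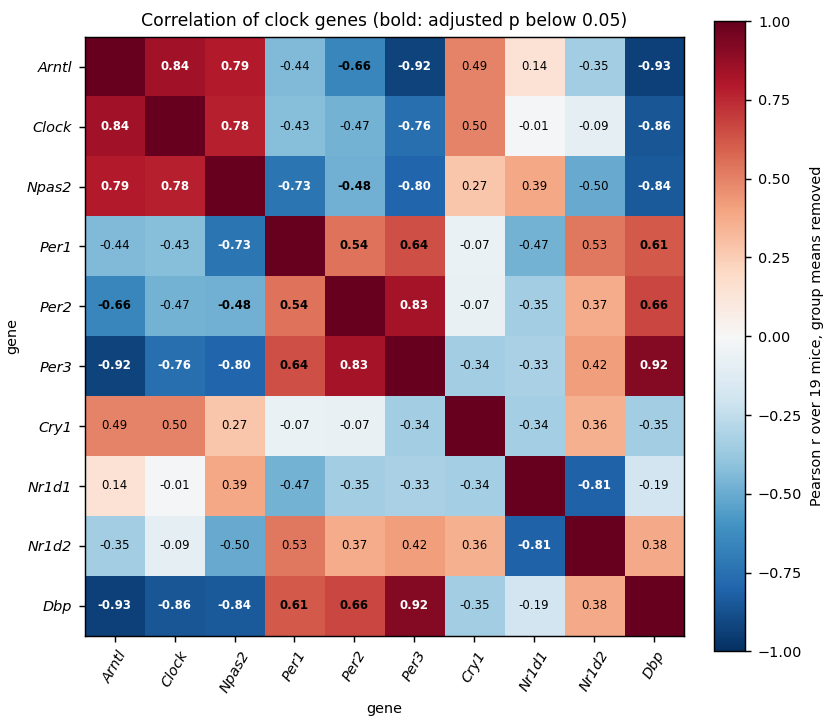
Pearson r of each pair of clock genes over the 19 mice after removing group means, red positive and blue negative, with bold values where the adjusted permutation p was below 0.05. Arntl, Clock and Npas2 form 1 positive block, the Per genes and Dbp another, and the values between these blocks are negative.

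Cry1 and the Nr1d genes had few or no pairs that passed. Cry1 passed in 0 of 9 pairs, with its highest r at 0.50 for Clock and 0.49 for Arntl. Leaving out each mouse gave 0.41 to 0.72 for Cry1 with Clock and 0.39 to 0.68 with Arntl. In the run of lower animal numbers r of Cry1 was 0.63 with Arntl, 0.54 with Clock and 0.69 with Npas2. In the other run these were 0.14, 0.21 and -0.68. Nr1d1 passed in 1 of 9, and that was with its relative Nr1d2, at r = -0.81 and rho = -0.68 (permutation p = 0.00199 and 0.00846, adjusted p = 0.00746 for r). With Arntl, the gene its protein represses, Nr1d1 had r = 0.14 and rho = 0.13 (permutation p = 0.54 and 0.61), and r was -0.08 among the mice of the run of lower animal numbers. The first principal component of the 10 members held 57.8% of their within-group variance, with Arntl, Clock and Npas2 opposite to Per3, Dbp, Per2 and Per1. The second held 22.3% and set Nr1d1 against Nr1d2 and Cry1.

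Without the 2 mice farthest from the median of Arntl, r was -0.897 for Dbp, -0.885 for Per3, 0.83 for Clock and 0.89 for Npas2. For Per3 with Dbp it was 0.88 without the 2 mice farthest from the median of Per3, and for Nr1d1 with Nr1d2 it was -0.60 without the 2 farthest from the median of Nr1d1. The last pair also differed by run of animal numbers, at r = -0.30 among the 13 mice of the run of lower numbers and -0.92 in the other run. That run had 6 mice, and its single Gramd1c-/- mouse added nothing to r once group means were removed. Leaving out each mouse in turn gave r between -0.95 and -0.91 for Arntl with Dbp. Without both libraries that stood apart, r was -0.92 for Arntl with Dbp and -0.90 for Arntl with Per3, and 12 of 45 pairs passed. Mouse 1 of the low cholesterol Gramd1c+/+ group decided as many pairs: 12 of 45 passed without it. Without the library highest in Kupffer cell markers, r was -0.91 for Arntl with Dbp and 17 of 45 pairs passed.

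**Figure D4:**
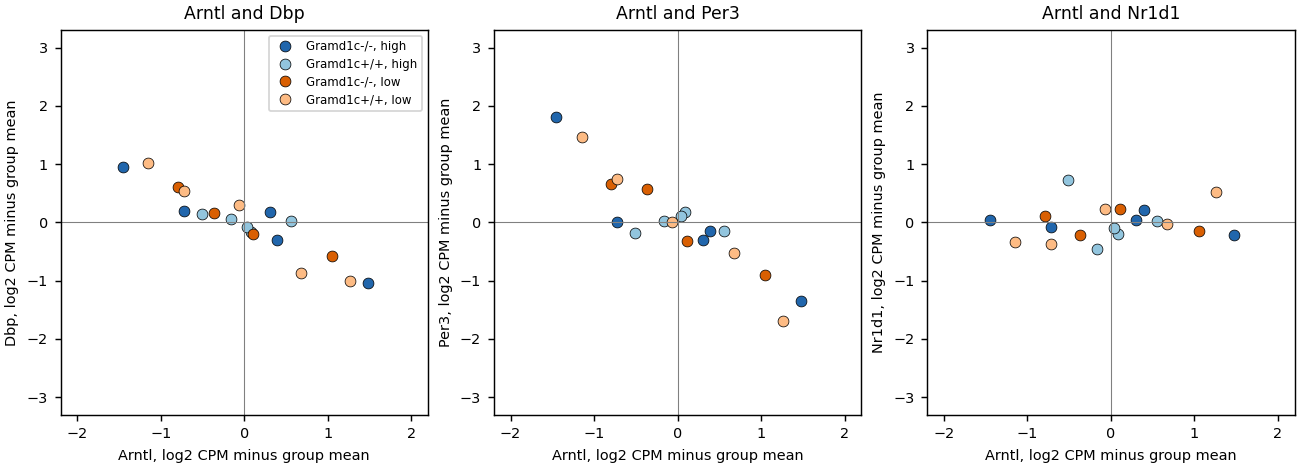
Log2 CPM of Dbp, Per3 and Nr1d1 against that of Arntl, each minus its group mean, with 1 point per mouse coloured by group. Over the 19 mice r is -0.93 with Dbp, -0.92 with Per3 and 0.14 with Nr1d1, and the Gramd1c+/+ mice on high cholesterol span little of the Dbp axis.

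Animal numbers were the only trace of handling order in the files, and they need not be the order in which tissue was collected. Ranked from 1 to 19 by that number, the mice were split here into 2 runs at a gap in the numbers. Ranks 1 to 13 held mice of all groups, and ranks 14 to 19 held 6 mice, with no Gramd1c-/- mouse on low cholesterol among them. A gap of the same size lay between ranks 11 and 12, so the run of lower numbers joins 2 blocks. The 4 mice with the highest Arntl were neighbours in pairs, ranks 1 and 2 and ranks 12 and 13. The first pair were Gramd1c+/+ mice on low cholesterol, and the other pair were a Gramd1c-/- mouse on high and a Gramd1c-/- mouse on low cholesterol. At the other end, ranks 17, 18 and 19, from 2 groups, had Arntl of 0.668, 0.482 and 0.250 TPM and Per3 of 2.28, 3.71 and 7.90 TPM. Ranks 14, 15 and 16 of the same run did not follow that order. These Gramd1c+/+ mice on high cholesterol had Arntl of 0.592, 0.918 and 0.398 TPM and Per3 of 2.54, 2.10 and 1.90 TPM.

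A straight relation with animal number was not found. Over the 19 mice, with group means removed, 0 of 10 members passed after Benjamini-Hochberg adjustment. The largest r was that of Clock, at -0.56 (rho = -0.56, permutation p = 0.0212 and 0.0185, adjusted p = 0.212 and 0.185), and it was -0.31 without the 2 mice farthest from the median number. For Arntl r was -0.46 (permutation p = 0.0854, adjusted p = 0.214), but 0.70 within the run of lower numbers and -0.43 within the run of higher numbers. Dbp was at 0.53 over all mice, -0.63 within the run of lower numbers and 0.60 within the other. The run of lower numbers includes ranks 12 and 13, which follow a gap in the numbers and were among the 4 mice highest in Arntl. Arntl with Dbp was at r = -0.91 within the run of lower numbers (13 mice) and -0.56 within the other, and Arntl with Per3 at -0.91 and -0.36. Per3 with Dbp was at r = 0.87 and 0.90, and Arntl with Npas2 at 0.88 and -0.07. Group means were removed anew within each run, so the single Gramd1c-/- mouse of the run of higher numbers added nothing to r there. Values within that run thus rest on 3 Gramd1c+/+ mice on high and 2 on low cholesterol. Its 6 mice allow only 12 arrangements within groups and no permutation p below 0.0833. The part that collection time had in this covariation was not tested.

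**Figure D5:**
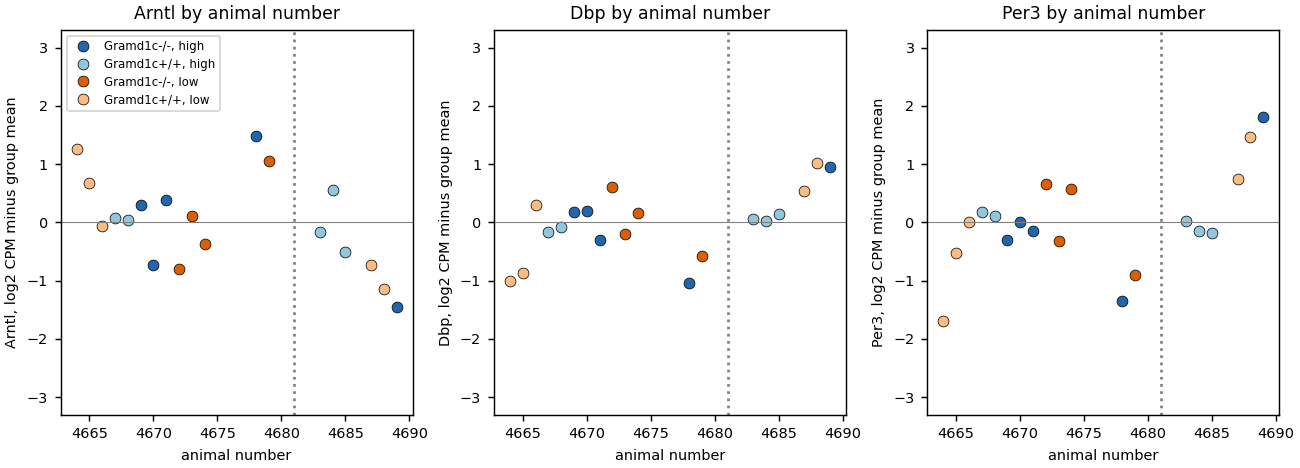
Log2 CPM of Arntl, Dbp and Per3 minus the group mean against animal number, with 1 point per mouse coloured by group and a dotted line between the 2 runs of numbers. Arntl is highest in the mice of ranks 12, 1 and 13 and lowest in that of rank 19, where Dbp and Per3 are high.

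Other genes followed the Arntl and Dbp axis closely. Among the 15006 tested genes outside the members, those with the highest r with Arntl were St5 (0.92), Loxl4 (0.91), Clpx (0.90), Rab11fip4 (0.89) and Tab2 (0.88), and among the lowest were Nmrk1 (-0.87), Tmem60 (-0.85), Coq10b (-0.85) and Azin2 (-0.85). For Dbp the highest were Coq10b (0.91), Cd320 (0.89), Nrg4 (0.88), Tmem60 (0.88) and Pusl1 (0.86), and the lowest were Loxl4 (-0.935), St5 (-0.925), Asap2 (-0.895), Leo1 (-0.895) and Il4ra (-0.89). Clpx encodes a subunit of a mitochondrial protease and was at 46.9 to 225 TPM, and Nmrk1, an enzyme that makes a precursor of NAD, was at 2.66 to 29.0 TPM. The genes nearest to Nr1d1 were others: Sod3 (0.88), Fam98b (0.87), Ctnnd1 (0.86), Ctdnep1 (0.86) and Pcbp1 (0.845) at the top, and Trnt1 (-0.90), Uba3 (-0.88), Tbk1 (-0.88), Fgfr1op (-0.88) and Gm14403 (-0.87) at the bottom. These are descriptions over 19 libraries that share depth and composition, and for Arntl the median size of r over all genes was 0.30, with 5% of genes above 0.65.

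Genes around the clock were looked at through lists. Of the 12 tested among 13 other clock genes, 0 were called in any of the 7 comparisons, 6 of 12 had an unadjusted edgeR p below 0.05 for diet averaged over both genotypes (18.3% of all genes did), and the smallest edgeR adjusted p was 0.0887, for Bhlhe41, which encodes a repressor of the ARNTL and CLOCK pair. Its log2 fold change for diet averaged over both genotypes was 1.01 (SE 0.29), and that of its relative Bhlhe40 was -0.33 (SE 0.11, edgeR adjusted p = 0.142). The median of the 12 in that comparison was -0.06, and of the 14 clock output genes 0.12, beside 0.02 for all genes. The output genes had 0 calls, with Cys1 closest (log2 fold change 0.38, SE 0.13, edgeR adjusted p = 0.149). For genotype averaged over both diets, all 9 glucocorticoid-responsive genes had a negative value (median -0.46, beside 0.008 for all genes). There 0 of the 9 had an unadjusted edgeR p below 0.05, and the list had 0 calls. Nor did the 9 fasting-responsive genes (median -0.38 for diet averaged over both genotypes, Igfbp1 at -0.56, edgeR adjusted p = 0.149) or the 8 temperature-responsive genes (median 0.01) reach a call.

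The gene called among these lists was Fasn, the fatty acid synthase of the feeding-responsive list of 6. It fell by 1.45 (SE 0.31) on the log2 scale for high over low cholesterol in Gramd1c-/- mice (edgeR adjusted p = 0.0454) and its log2 fold change averaged over both genotypes was -1.201 (SE 0.214, edgeR adjusted p = 0.00388). In Gramd1c+/+ mice its log2 fold change was -0.95 (SE 0.29, edgeR adjusted p = 0.323), and the genotype by diet interaction was -0.50 (SE 0.42, edgeR adjusted p = 1). Pnpla3, of the same list, had -1.23 (SE 0.39, edgeR adjusted p = 0.12) for diet averaged over both genotypes.

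Across mice of 1 group, 25 of 580 relations between a member and a list gene passed after Benjamini-Hochberg adjustment, 15 positive and 10 negative, and 16 of the 25 also by rank. Of the 58 list genes tested, those with a size of r above the 95th percentile of all genes numbered 18 with Per1, 11 with Npas2, 11 with Per3, 10 with Dbp, 8 with Arntl and 6 with Nr1d2. They numbered 3 with Clock and 3 with Nr1d1, close to the 5% of all genes, and 1 with Per2 and 1 with Cry1, below that share. Of the 25 relations that passed, Per1 had the most, with 5. It was positive with Alas1, the first enzyme of heme synthesis (r = 0.87, rho = 0.79), with Ciart, a repressor within the clock (r = 0.85, rho = 0.89), with Noct, a clock output with a peak in the night (r = 0.83, rho = 0.83), and with Tef, a relative of Dbp (r = 0.77, rho = 0.79). With Pdk4, induced by fasting, Per1 was negative at r = -0.69 (adjusted permutation p = 0.0485). Tef also followed Per2 (r = 0.79) and Per3 (r = 0.79).

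Other members had a few such partners. Arntl was positive with Cdkn1a (r = 0.78) and with the chaperone gene Hsph1 (r = 0.79). Dbp followed Usp2, a deubiquitinase under clock control (r = 0.77). Npas2 had 4 partners, of which 3 were negative and 1, Pdk4, was positive (r = 0.73). Clock and Nr1d2 had 3 each, not named here. Also by rank, 1 of 2 partners passed for Arntl, 1 of 2 for Dbp and 2 of 4 for Npas2. Nr1d1 was negative with Nampt, which makes NAD from nicotinamide (r = -0.85, rho = -0.81), and with the chaperone gene Hspa8 (r = -0.68). Cry1 had 0 partners. Whether fasting state, hormone level or body temperature had a part in these relations was not tested.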

How the data were processed

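Per Ensembl gene, the authors deposited raw read counts in whole numbers for each of the 19 livers, beside gene positions and lengths. The submitters' processing notes name STAR 2.5.2b and GRCm38. For the counting tool, strand setting and annotation release: not given in the sources used here. A symbol was found by identifier for 48970 of 49315 genes. Counts went into edgeR 4.0.16 (R 4.3.3) with TMM, filterByExpr (minimum count 10), all 4 groups in 1 fit and quasi-likelihood tests, adjusted by Benjamini-Hochberg over 15016 genes (threshold 0.05). edgeR gives no SE for this test, so each SE was derived as the size of the log2 fold change divided by the square root of the F statistic. The common biological coefficient of variation was 0.255. TPM were computed from the deposited counts and lengths and tested by exact permutation. Correlations used log2 CPM with group means removed and 100000 two-sided permutations within groups, adjusted over 45 pairs, 10 members or 580 list relations. The test scripts were tested on simulated data.

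Members and lists were chosen with earlier results of these data known. The genes to be named were the 10 members, Gramd1c, Alb and Adipoq, called list genes and up to 3 genes of smallest p per list and comparison, and the 5 highest and 5 lowest r with Arntl, Nr1d1 and Dbp. List genes named for a correlation were picked after their values were seen, as those past the adjusted threshold. Rorb did not pass the filter. Most list genes selected by smallest p, all short of the threshold, and a few other genes are not reported here. Alternatives were DESeq2 1.42.0, RLE, no filter, a stricter filter (1 CPM in 10 mice), a fit of only the groups compared, a block for replicate number, a run term, limma 3.58.1 on log2(TPM + 1) and leaving out each mouse. A term for 3 runs and leaving out both libraries that stood apart were chosen after seeing the data. Other software was Python 3.11.15 (numpy 2.4.6, pandas 2.3.3, scipy 1.17.1, matplotlib 3.10.9).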

Additional observations from a re-analysis of the deposited data

Results flagged for a closer look

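Of 40 sets of mice (10 genes in 4 groups), 4 had a mouse far from the rest of its group by Dixon's gap, where chance gives about 1 in 20. Npas2 was 0.856 TPM in mouse 4 of the low cholesterol Gramd1c-/- group and between 0.181 and 0.247 TPM in its other mice, and that mouse also had the highest Arntl of its group. Nr1d1 was 138 TPM in mouse 3 of the high cholesterol Gramd1c-/- group and between 90.8 and 96.5 TPM in the rest. In mouse 5 of that group Per2 was 9.08 TPM, with 2.16 to 4.02 TPM in the rest, and Per3 was 7.90 TPM, with 1.01 to 2.57 TPM in the rest. That mouse is the library that stood apart on the first principal component of all genes.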

How the results depend on the processing

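No member was called under any of the 29 alternatives run, and the smallest adjusted p of a member over them was 0.161. The fit of only the groups compared gave no value for the averaged comparisons or the interaction. Under the stricter filter Npas2 had no value. Of 1993 member values under alternatives, 1822 had the sign of the reported value. All genes called numbered 111 for diet in Gramd1c+/+ mice, 94 for diet in Gramd1c-/- mice and 598 for diet averaged over both genotypes with DESeq2, against 66, 49 and 195 with edgeR. Leaving out each mouse gave 41 to 87, 34 to 55 and 119 to 308. The animal run term gave 2 genes for genotype averaged over both diets.

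Same-numbered mice did not deviate together (mean correlation of residuals -0.069 over 27 pairs, of which 5 were over 0.1, and 0.017 over 108 pairs of unlike number), so the numbers were not taken as pairing. The replicate block gave 122 genes for diet averaged over both genotypes, 47 in Gramd1c+/+ and 36 in Gramd1c-/- mice, and 0 members in each comparison.

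Some log2 fold changes changed sign. With the term for 3 runs, Per1 was 0.0239 for genotype on low cholesterol, Npas2 was -0.124 for genotype on high cholesterol and Npas2 was 0.0428 for diet averaged over both genotypes. With limma on log2(TPM + 1), Per1 was 0.0214 for genotype on low cholesterol and 0.0601 for diet averaged over both genotypes. Without both libraries that stood apart, Per2 was -0.114 for genotype averaged over both diets. Leaving out each mouse gave -0.540 to 0.0175 for Per1 by genotype on low cholesterol, -0.818 to 0.203 for Arntl by diet in Gramd1c-/- mice and -0.0845 to 0.304 for Per2 by genotype averaged over both diets. For diet averaged over both genotypes it gave -0.521 to 0.00824 for Npas2, -0.0619 to 0.125 for Nr1d1, -0.157 to 0.00461 for Nr1d2 and -0.168 to 0.114 for Per1. The cause of these shifts was not tested.

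Correlated pairs numbered 11 of 45 within the run of lower animal numbers, 12 without both libraries that stood apart and 12 to 19 with each mouse left out. In the run of higher numbers they were not counted, since 12 arrangements allow no p below 0.0833. There r was -0.0664 for Arntl with Npas2 and -0.390 for Arntl with Nr1d1, from the Gramd1c+/+ mice alone, since the single Gramd1c-/- mouse adds nothing. In the run of lower numbers r was -0.0843 for Arntl with Nr1d1, and leaving out each mouse gave -0.0573 to 0.330. Npas2 did not pass the stricter filter and has no value there. Depth limits Npas2 (4 to 67 counts) and Arntl (26 to 259 counts) most.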
